A study of Zea mays with 4 samples.

Results

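Genes whose transcripts were counted in whole maize leaves and not once in protoplasts made from the same leaf region are described here. A gene belonged to the group when its raw read count was 0 in both protoplast libraries and at least 4 in both leaf libraries. The rule found 255 genes among the 18609 genes with usable values in all 4 libraries, out of 46430 genes in the annotation. The 255 genes were thus selected on their counts in the leaf and protoplast libraries, and the difference between the groups is given as a description without a test.

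The protoplast group consisted of 2 pools of protoplasts, leaf cells freed from their walls with cell wall degrading enzymes, and the leaf group of 2 pools of intact leaf segments homogenized in liquid nitrogen. All plants were untransformed B73, an inbred maize line, grown in a greenhouse and sampled from the distal 6 cm of leaf 2 at seedling stage V2. Polyadenylated RNA was sequenced in every library. Each pool came from several plants, 6 according to the sample labels and 4 leaves according to the methods, and by the study's description the digestion freed mostly mesophyll cells, bundle sheath cells were recovered with low efficiency and no vascular cells were identified among the single cells sequenced from such protoplasts, which limits the protoplasts as a model of the leaf.

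A maize leaf holds mesophyll cells, which fix carbon first, bundle sheath cells around each vein, which complete the fixation, and in addition epidermis, guard cells, phloem and xylem. Protoplasting dissolves the walls between these cells, and thick-walled or tightly joined cells are the hardest to free. Transcript sets of protoplasts and of whole tissue therefore differ through the cells recovered and through the response of cells to the treatment. In these bulk libraries, fewer cells of a type and less RNA per cell cannot be told apart.

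Over the 18609 shared genes, which lie on chromosomes 1, 2, 10 and part of chromosome 3, the libraries held between 14976340 and 17049307 counts in protoplasts and between 15838934 and 18322950 counts in leaf. After scaling with trimmed mean of M-values (TMM) factors, 3 counts corresponded to 0.187 and 0.232 CPM (counts scaled to a common library size) in protoplast 1 and protoplast 2, and a count of 0 allows a level up to that value. The edgeR quasi-likelihood test on the whole table called 2110 of 9017 tested genes lower in protoplasts (23.4%) and 1770 higher, at a Benjamini-Hochberg adjusted p under 0.05 and a log2 fold change beyond -1 or 1. Summed counts of the 2 mesophyll photosynthesis genes covered were 182895 and 131955 in protoplasts, against 178614 and 154035 in leaf. Those of 5 bundle sheath photosynthesis genes were 41389 and 34253 in protoplasts, against 1001423 and 848094 in leaf. The 4 covered transport genes of the abaxial bundle sheath summed to 482 and 224 counts in protoplasts, against 28773 and 23316 in leaf, and the companion cell sucrose transporter SUT1 (Zm00001d027854) had 19 and 13 counts in protoplasts, against 18802 and 15269 in leaf. None of these 12 markers was at 0 and none was among the 255 genes, and the part that cell recovery has in the values below was not tested.

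Most of the 255 genes were weakly expressed in leaf. Their lowest, median and highest counts were 4, 15 and 4247 in leaf 1 and 4, 15 and 3388 in leaf 2, and their median mean leaf level was 0.851 CPM, against 14.6 CPM for all 9292 genes with at least 4 counts in both leaf libraries. By the lower of the leaf counts, 108 genes had 4 to 9 counts, 114 had 10 to 99, 29 had 100 to under 1000 and 4 had at least 1000. The group made up 2.74% of the 9292 leaf-expressed genes, and it took 0.132% of the counts of leaf 1 and 0.142% of those of leaf 2 over the shared genes. The 5 genes with the highest leaf levels held 45.7% and 46.2% of the group's counts in leaf 1 and leaf 2, and without them the shares were 0.0717% and 0.0766%.

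The share of genes with no protoplast count became smaller as leaf counts became larger. Of 741 genes whose lower leaf count was 4 to 9, 108 (14.6%) had 0 counts in both protoplast libraries, and of 585 genes with 10 to 19 it was 51 (8.72%). The share was 4.59% (43 of 936) for 20 to 49 counts, 2.28% (20 of 877) for 50 to 99 and 1.35% (15 of 1115) for 100 to under 200. At 200 counts and above, 18 of 5038 genes (0.357%) had none, in a class whose median gene had 1273.5 counts summed over the protoplast libraries. The first of these classes lies at the detection limit. The weakest genes, with 4 counts in each leaf library, were at 0.213 CPM in leaf, close to the 0.187 and 0.232 CPM that 0 protoplast counts still allow, so a difference was not detectable for them at this depth. With the mean level of 3 counts per protoplast library as the limit, the mean leaf level of 197 of the 255 genes was at least 2-fold above it. For 130 genes it was at least 4-fold above, for 69 at least 10-fold, for 12 at least 100-fold and for 3 at least 500-fold. These bounds cover counting error of the protoplast libraries only. Counting error in leaf is not included, so the bounds of genes with few leaf counts are uncertain.

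**Figure D1:**
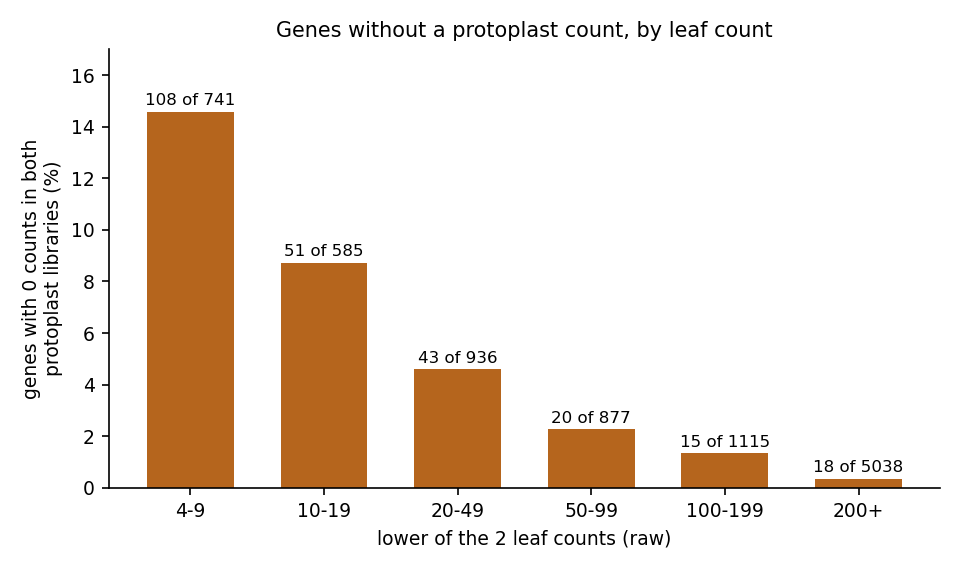
Bars give the percentage of genes with 0 counts in both protoplast libraries (y axis) in classes of the lower of the 2 raw leaf counts (x axis), for the 9292 genes with at least 4 counts in both leaf libraries, with the number of genes above each bar. The share is 14.6% in the class of 4 to 9 counts and 0.357% in the class of 200 counts and above.

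Genes just outside the rule were of similar number. With 0 in both protoplast libraries, 27 genes had a lower leaf count of exactly 4 and are included, while 38 had 3 and are not. A further 147 genes with at least 4 counts in both leaf libraries had a single count over both protoplast libraries, 95 of them in protoplast 1 and 52 in protoplast 2. With protoplast 2 as the only protoplast library, the rule took 469 genes. The strongest of those 147 exceeded every gene of the group in leaf. Zm00001d024037, a gene of 12 exon blocks on chromosome 10 (38844199 to 38849055), had 1 and 0 counts in protoplasts, against 16085 and 9859 in leaf. Zm00001d029444 had 0 and 1 counts in protoplasts, against 2148 and 1916 in leaf, and Zm00001d004301 had 0 and 1, against 1078 and 704. Genes on either side of the limit between 0 and 1 count overlapped in leaf level, with a median of 0.851 CPM in the group and 1.16 CPM in the 147 genes beyond it.

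The gene with the highest leaf level was Zm00001d042420 on chromosome 3 (166637966 to 166639387, plus strand), a model of 1 exon and 1422 bases. It had 0 and 0 counts in protoplasts, against 4247 and 3388 in leaf. That is 201 ± 11.3 CPM in leaf (SD, n = 2) and at least 963-fold more than 3 counts per protoplast library. The gene after it, Zm00001d042421, is separated from it by 1099 bases on the opposite strand and had 1503 and 1587 counts in protoplasts, against 722 and 662 in leaf, so a gene with no protoplast count stood directly beside one with more than 1000.

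Zm00001d040837 on chromosome 3 (69485812 to 69486249, plus strand) was the second. Its model is a single exon of 438 bases, and it had 0 and 0 counts in protoplasts, against 2261 and 2508 in leaf, at least 609-fold more. Per kilobase of exon it had the highest leaf level of the group, 291 CPM per kb. Zm00001d023869 on chromosome 10 (25661970 to 25662434, minus strand), 1 exon of 465 bases, had 0 and 0 counts in protoplasts, against 2014 and 2194 in leaf, at least 537-fold more. Zm00001d023873 (25872396 to 25872710) and Zm00001d023870 (25715661 to 25716072) lie on the same strand of chromosome 10. The first had 0 and 0 counts in protoplasts, against 1250 and 1384 in leaf (at least 336-fold), and the second 0 and 0, against 1292 and 951 (at least 282-fold). Since the rule set protoplast counts to 0 and these genes lead by leaf level, the distance between groups follows from the selection. Their log2 ratios of leaf 1 to leaf 2 CPM lay between -0.36 and 0.23.

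The next members by leaf level had between 467 and 789 counts in each leaf library. Zm00001d031201 on chromosome 1 (181968293 to 181971430), with 2 exon blocks over 3043 bases, had 0 and 0 counts in protoplasts, against 789 and 711 in leaf (at least 190-fold). Zm00001d040450 on chromosome 3 (43934767 to 43935758) had 0 and 0 in protoplasts, against 753 and 625 in leaf (at least 174-fold). Zm00001d004310 on chromosome 2 (102236161 to 102236436), a single exon of 276 bases, had 0 and 0 in protoplasts, against 719 and 651 in leaf (at least 174-fold). The gene before it on the same strand, Zm00001d004309, had 1 and 0 counts in protoplasts, against 316 and 271 in leaf, and misses the rule by that single count. ENSRNA049469775, a non-protein-coding model of 193 bases on chromosome 2 (31647279 to 31647471), had 0 and 0 in protoplasts, against 605 and 630 in leaf (at least 157-fold). Zm00001d040627, with 3 exon blocks on chromosome 3 (54948300 to 54950704), had 0 and 0 in protoplasts, against 467 and 528 in leaf (at least 127-fold). Whether these models share reads with near-identical copies elsewhere in the genome was not tested, and because the treatment of reads that map to several places is not given in the sources used here, their counts and fold bounds are uncertain to that extent. Neither the tables of the study nor the reference table of gene names used here gave a product for any of these 10 genes. The reference table held only 518 identifiers of the annotation and none of the group, so it could not name them. Zm00001d040627 lies between genes with 9 and 5 counts and with 17 and 15 counts in protoplasts, against 221 and 211 counts and 139 and 113 counts in leaf.

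**Figure D2:**
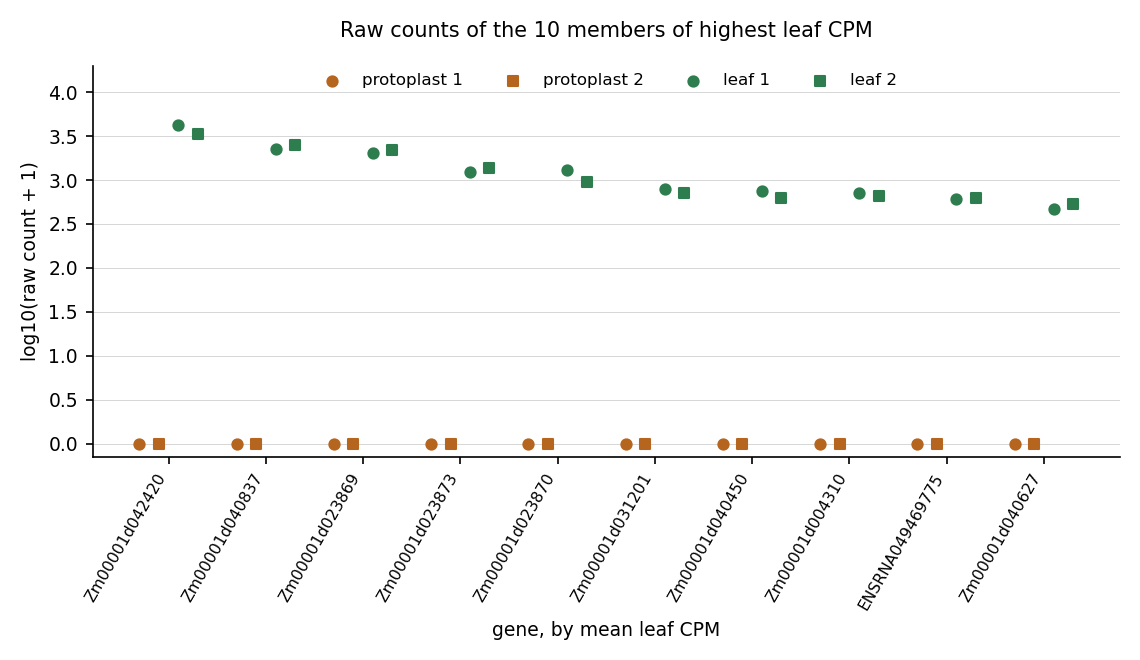
Raw counts in each library, as log10 of the count plus 1 (y axis), for the 10 genes of the group with the highest mean leaf CPM (x axis), with protoplast pools in brown and leaf pools in green. The protoplast points lie at 0 for all 10 genes, and the leaf points lie between 467 and 4247 counts.

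By level per kilobase of exon, 8 of the first 10 genes recur. The list adds Zm00001d040836 on chromosome 3 (69002490 to 69002801), with 0 and 0 counts in protoplasts, against 407 and 488 in leaf and 76.8 CPM per kb, and Zm00001d030339 on chromosome 1 (123359112 to 123359663), with 0 and 0 in protoplasts, against 418 and 451 in leaf and 42.0 CPM per kb. Both are single-exon models. Of these 10, ranked per kilobase, only Zm00001d040450 has more than 1 exon block.

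Gene models in the group were shorter and had fewer exons than those of leaf-expressed genes with a protoplast count, and were about as long as annotated genes in general. After merging of overlapping exons, 102 of the 255 genes (40.0%) had a single exon block, 109 had 2 to 4 and 44 (17.3%) had 5 or more. Among the 9037 leaf-expressed genes with a protoplast count, 17.1% had a single block and 47.2% had 5 or more. Median exon length was 1213 bases in the group and 1903 bases in those 9037 genes, and 51 genes (20.0%) of the group were under 500 bases, against 4.81%. Over all 18609 genes with usable values, expressed or not, 30.0% had a single block, the median exon length was 1203 bases and 20.7% were under 500 bases, so the group's lengths were close to those of the annotation as a whole. Structure was not part of the rule, although leaf level was, and short single-exon models are also more common among weakly expressed genes. Within classes of like leaf count, the share of single-exon genes was 44.4% in the group against 31.0% in genes with a protoplast count at 4 to 9 leaf counts, and 33.3% against 31.3% at 10 to 19. It was 37.2% against 25.3% at 20 to 49, 30.0% against 23.1% at 50 to 99 and 26.7% against 17.1% at 100 to under 200. At 200 counts and above it was 61.1% (11 of 18 genes) against 11.3%, and median exon length there was 720.5 bases against 2247 bases. The share was thus higher in the group in all 6 classes, with a gap of a few percentage points at 10 to 19 counts. At 50 to 99 and 100 to under 200 counts it rests on 6 of 20 and 4 of 15 genes, so these gaps are uncertain.

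**Figure D3:**
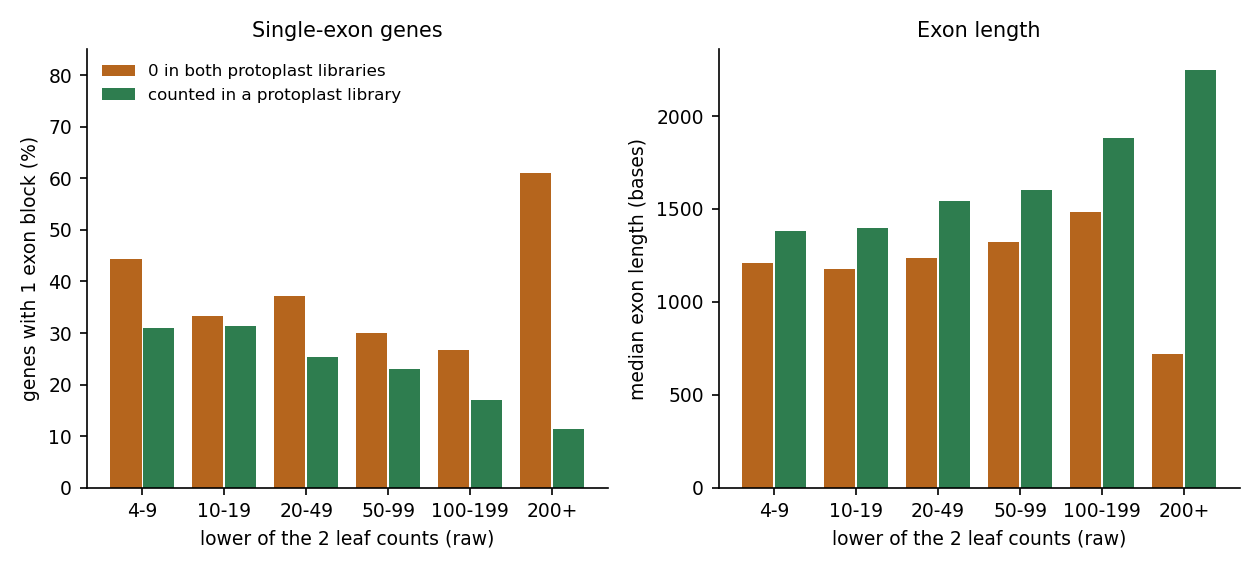
Percentage of genes with 1 exon block (left, y axis) and median exon length in bases (right, y axis) in classes of the lower leaf count (x axis), for genes with 0 counts in both protoplast libraries (brown) and for leaf-expressed genes with a protoplast count (green). The widest gap is in the class of 200 leaf counts and above, at 61.1% against 11.3% single-exon genes and 720.5 against 2247 bases.

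The opposite class had a similar structure. Among the 124 genes with at least 4 counts in both protoplast libraries and 0 in both leaf libraries, 49.2% had a single exon block and the median exon length was 1153.5 bases. Short models with few exons were accordingly not particular to the genes without protoplast counts. The genes with a single count over both protoplast libraries had 24.5% single-exon genes and a median length of 1575 bases, between the values of the group and those of all 9037 leaf-expressed genes with a protoplast count.

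Length and leaf level went apart at the ends of the range. The longest members were Zm00001d028252 on chromosome 1 (7273 bases of exon), Zm00001d004073 on chromosome 2 (6854 bases) and Zm00001d029215 on chromosome 1 (5009 bases in 24 exon blocks). Their protoplast counts were 0 and 0 each, and their leaf counts were 13 and 6, 7 and 8, and 8 and 4. The shortest were the non-coding models ENSRNA049468913 (80 bases, leaf counts 4 and 5), ENSRNA049471660 (169 bases, 8 and 6) and ENSRNA049471654 (170 bases, 9 and 12), also at 0 and 0 in protoplasts. Each of these 3 lies within a longer gene on its own strand. One such host, Zm00001d034059, described as a 60S ribosomal protein, had 1900 and 1196 counts in protoplasts, against 1626 and 2343 in leaf, and Zm00001d024511, a ribosomal protein S3 gene that holds both other models, had 2058 and 1483, against 1821 and 2109. In all, 11 of the 255 genes overlapped another annotated gene, 5 of them on the same strand, and their counts are uncertain because the use of strand in counting is not given in the sources used here.

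The group was found on each of the chromosomes covered. It held 82 of 3587 leaf-expressed genes on chromosome 1 (2.29%), 76 of 2770 on chromosome 2 (2.74%), 50 of 1424 on the covered part of chromosome 3 (3.51%) and 47 of 1511 on chromosome 10 (3.11%). The summed leaf counts were highest on chromosome 3, at 10290 and 9437 for its 50 genes, against 4159 and 3641 for the 82 genes of chromosome 1. The genes lay in slightly sparser regions, with a median of 46 other annotated genes within 1 Mb, against 52 for leaf-expressed genes with a protoplast count. In classes of like leaf count the median was lower in the group except at 100 to under 200 counts, where it was 54 in both sets. For the 10 genes of highest leaf level the median was 29.5. Among them, Zm00001d023869, Zm00001d023870 and Zm00001d023873 lie close together on chromosome 10, so their windows overlap.

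Some members were close to one another, and whether more or fewer than in other sets of 255 genes was not tested. The start of another member lay within 100 kb for 32 of the 255 genes (12.5%), in 15 groups of which 14 were pairs. The share is 88.4% among all 9292 leaf-expressed genes, a set so much denser that these shares cannot be set against each other. The single larger group consisted of Zm00001d023869, Zm00001d023870, Zm00001d023872 and Zm00001d023873, all single-exon models on the minus strand within 211 kb of chromosome 10. Zm00001d023872 was the weak one, with 0 and 0 counts in protoplasts, against 27 and 32 in leaf. The only other gene between them, Zm00001d023871, is on the plus strand and had 0 counts in all 4 libraries. The flanking genes were counted in protoplasts, with 64 and 39 for Zm00001d023868 and 2735 and 2227 for Zm00001d023874, against 156 and 169 and 2081 and 1782 in leaf. The interval without protoplast counts thus held 5 genes, and any such interval ends by definition where a gene has a protoplast count.

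A run of neighbouring genes on chromosome 3, noticed after the values were seen, was of the same kind. Between Zm00001d040834, with 854 and 557 counts in protoplasts against 609 and 817 in leaf, and Zm00001d040842, with 3837 and 3473 against 4403 and 3537, there are 8 annotated genes. None of the 8 had a protoplast count. The 4 with leaf counts were all members, namely Zm00001d040836 (407 and 488 leaf counts), Zm00001d000548 (16 and 22), Zm00001d040837 (2261 and 2508) and Zm00001d040839 (311 and 271), and the other 4 were at 0 in leaf as well. Zm00001d000548 overlaps Zm00001d000547 on the same strand. Genes at 0 in protoplasts were common in general. Over all 18609 genes with usable values, 6166 had 0 counts in all 4 libraries. A further 1190 had 0 in both protoplast libraries and a leaf count. Longer runs at 0, of 10 genes with 2 members each, lay on chromosome 2 and elsewhere on chromosome 3. Elsewhere members mostly stood alone. Of the 255 genes, 216 were the only member in their unbroken run of genes at 0 in protoplasts, and for 74 the genes on both sides had protoplast counts.

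**Figure D4:**
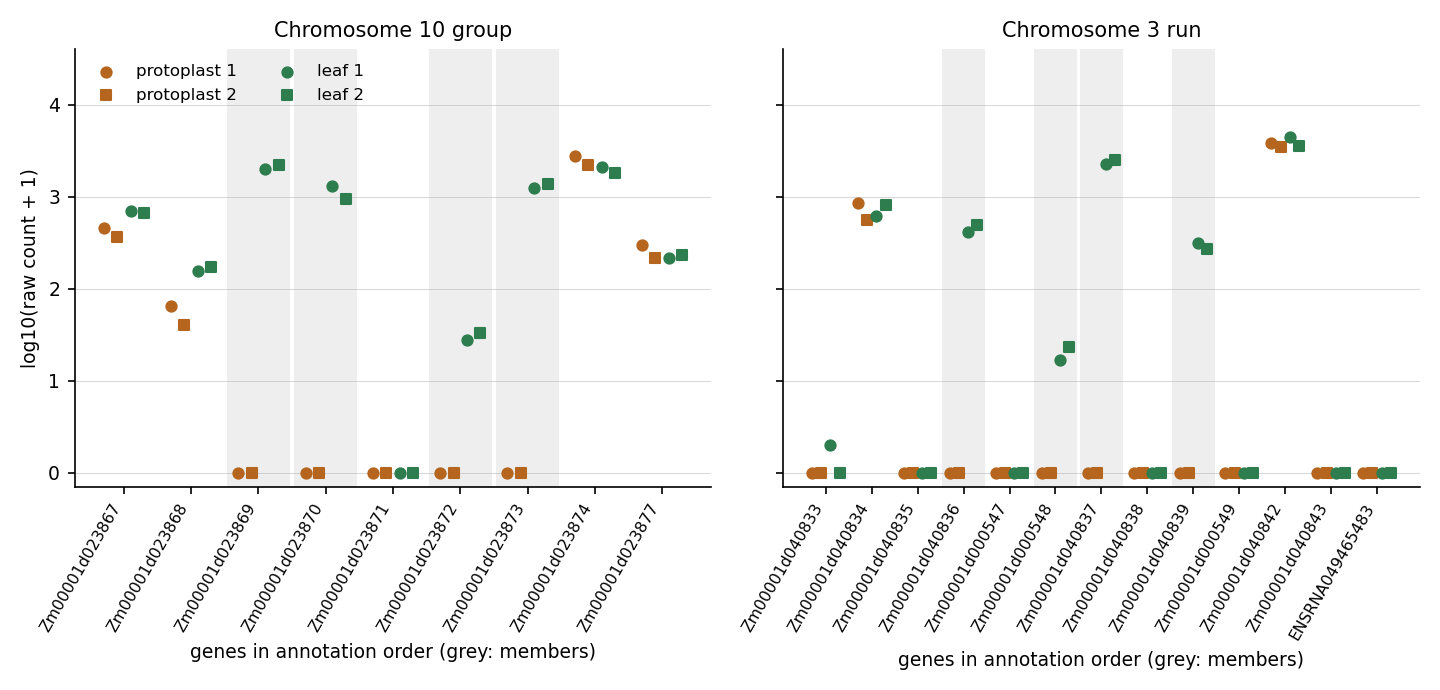
Raw counts per library, as log10 of the count plus 1 (y axis), of consecutive annotated genes (x axis, in order along the chromosome, not to scale) around the group of 4 on chromosome 10 (left) and the run on chromosome 3 (right), with protoplast pools in brown, leaf pools in green and members shaded. Inside each interval every protoplast point is at 0, while the flanking genes Zm00001d023874 and Zm00001d040842 have more than 1000 counts in all 4 libraries.

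Neighbouring genes had leaf counts, or no counts at all, about as often as genes in general. Directly before or after a member lay 477 genes with usable values that are no members themselves. Of these 477, 158 had 0 counts in all 4 libraries and 238 had at least 4 counts in both leaf libraries. Over all 18609 genes with usable values the numbers were 6166 and 9292, nearly the same proportions. The medians of these 238 were 329 counts summed over the protoplast libraries and 530 summed over the leaf libraries, and 162 of the 238 had at least 100 protoplast counts while 31 had fewer than 10.

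A pair of members lay between the SWEET13b and SWEET13a genes, which encode sucrose exporters needed for phloem loading in the maize leaf. Zm00001d023674 on chromosome 10 (14798160 to 14799985, plus strand) is separated by 137 bases from the end of SWEET13b (Zm00001d023673) on the same strand, and it had 0 and 0 counts in protoplasts, against 13 and 6 in leaf. SWEET13b itself had 19 and 5 counts in protoplasts, against 2655 and 2166 in leaf. Zm00001d023675 (14829006 to 14832827, minus strand, 11 exon blocks) had 0 and 0 in protoplasts, against 21 and 26 in leaf, and the next annotated gene, SWEET13a (Zm00001d023677), which follows after 197353 bases, had 276 and 100, against 15140 and 11936. Whether reads of SWEET13b extend into Zm00001d023674 was not tested.

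Only 7 of the 255 genes carried a name in the sources used here. Of these, 4 belong to the UmamiT family (usually multiple acids move in and out transporters), membrane proteins of which several export amino acids in Arabidopsis, and were found through the maize genes in the study's UmamiT phylogeny. Zm00001d030507 on chromosome 1 (140167988 to 140169981) had 0 and 0 counts in protoplasts, against 248 and 206 in leaf, which is 11.99 ± 0.329 CPM (SD, n = 2) and at least 57.4-fold more. Zm00001d027682, also on chromosome 1 (11066056 to 11069126), had 0 and 0 in protoplasts, against 33 and 53 in leaf. Zm00001d002893 on chromosome 2 (26045493 to 26048383) had 0 and 0, against 27 and 36, and Zm00001d029545 on chromosome 1 (75662193 to 75664203) 0 and 0, against 10 and 27. The family was taken up after these values were seen, and its counts are a description.

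Of the 47 maize genes in that phylogeny, 16 had values in all 4 libraries, and 6 of the 16 had at least 4 counts in both leaf libraries, 4 of them the members above. The other 2 were Zm00001d030424, with 9 and 2 counts in protoplasts, against 604 and 567 in leaf, and Zm00001d032604, with 4643 and 3055, against 5692 and 4731. The family thus held genes with no protoplast count, with few, and with more than 1000. Among the 31 family genes outside the leaf 1 values, 19 had at least 4 counts in leaf 2, and 4 of these had 0 in both protoplast libraries, namely Zm00001d035714 (74 counts in leaf 2), Zm00001d018195 (64), Zm00001d044535 (15) and Zm00001d045582 (7). Zm00001d035717, one of the abaxial bundle sheath transport genes, had 43 and 9 counts in protoplasts, against 3348 in leaf 2. Over all genes, 2.74% of 9292 had 0 in both protoplast libraries, and 3.46% of 14649 with leaf 2 alone. The family is small and was chosen after its values were seen, so its counts do not measure an enrichment.

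The other 3 named genes were weakly expressed. Zm00001d032423, listed as dormancy associated1, had 0 and 0 counts in protoplasts, against 34 and 35 in leaf, and its neighbour Zm00001d032424 was a member too. Zm00001d032423 overlaps another gene on its strand. Zm00001d025205, listed as a putative helix-loop-helix DNA-binding protein, a class of transcription factors, had 0 and 0 in protoplasts, against 33 and 26 in leaf. Zm00001d002673, listed as Lysine histidine transporter-like 7, from a family of amino acid carriers of the plasma membrane, had 0 and 0 in protoplasts, against 13 and 21 in leaf. The remaining 248 genes were known by identifier only, 244 of them numbered Zm00001d models and 4 ENSRNA models.

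The leaf pools agreed on the members about as well as on other genes of like leaf count. The log2 ratio of leaf 1 to leaf 2 CPM had a median of -0.13 and an SD of 0.66 over the 255 genes, against 0.38 over the 9037 genes with a protoplast count. In classes of like leaf count the SDs were close, at 0.85 against 0.82 for 4 to 9 counts, 0.67 against 0.64 for 10 to 19, 0.43 against 0.51 for 20 to 49, 0.36 against 0.42 for 50 to 99, 0.22 against 0.28 for 100 to under 200 and 0.20 against 0.20 for 200 and above. Across the 255 genes, Pearson's r of log2 CPM between the leaf pools was 0.944, a value across genes of 1 pair of libraries. The pools were more than 2-fold apart for 36 genes (14.1%). Zm00001d000824 (32 and 9 counts in leaf 1 and leaf 2), Zm00001d007768 (14 and 4) and Zm00001d024802 (45 and 13) leaned most to leaf 1, and Zm00001d042905 (4 and 13), Zm00001d004555 (5 and 14) and Zm00001d029545 (10 and 27) most to leaf 2, all with 0 and 0 counts in protoplasts.

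**Figure D5:**
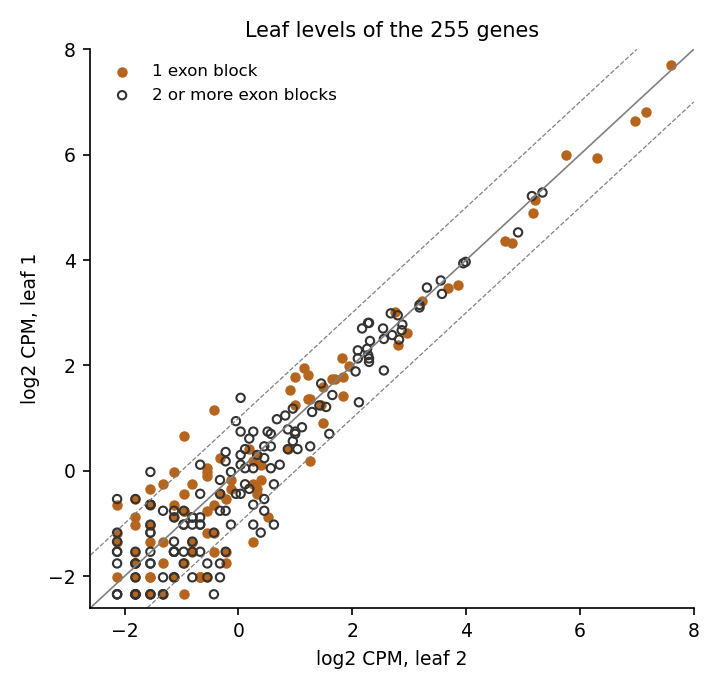
Log2 CPM in leaf 1 (y axis) against leaf 2 (x axis) for the 255 genes, with single-exon genes filled and genes of 2 or more exon blocks open, the solid line marking equality and the dashed lines a 2-fold difference. The 36 genes outside the dashed lines lie at low levels, and r is 0.944.

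In the test across all genes, the filter on low counts kept 136 of the 255 genes, and all 136 were called lower in protoplasts by edgeR's quasi-likelihood test with adjusted p under 0.05, where 23.4% of all tested genes were. Since these genes were selected on the same contrast and passed the filter only through leaf, this count carries no support of its own. The other 119 were too weakly expressed to be tested.

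Genes outside the leaf 1 values were read with leaf 2 as the only leaf library and without a test. Of 14649 such genes with at least 4 counts in leaf 2, 507 (3.46%) had 0 counts in both protoplast libraries, with shares from 3.02% on chromosome 5 to 4.16% on chromosome 9. None of the 132 plastid and 63 mitochondrial genes with at least 4 counts in leaf 2 was among them. The 507 had a median of 10 counts in leaf 2, and 49 had at least 100. Together they took 0.0536% of the leaf 2 counts over the whole annotation, a wider base than the shared genes used for the 255. Their structure resembled that of the 255 genes, with 35.5% single-exon genes against 19.1% of the genes with a protoplast count there, and a median exon length of 1254 bases against 1820.5 bases. The strongest were Zm00001d052139 on chromosome 4 (180632525 to 180635840, 5 exon blocks), with 0 and 0 counts in protoplasts, against 1030 in leaf 2, Zm00001d015407 on chromosome 5 with 0 and 0, against 705, and Zm00001d012632 on chromosome 8 with 0 and 0, against 696. Of the 10 strongest, only Zm00001d048720 (0 and 0, against 638) is a single-exon model, so the short single-exon models that led on chromosomes 3 and 10 did not lead here.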

How the data were processed

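The authors pooled leaf segments or protoplasts, selected fragments of 250 to 500 bp, trimmed reads with Trim Galore 0.6.5, mapped them with STAR 2.5.1b to B73 genome build AGPv4 and counted reads per gene with Subread featureCounts 2.0.1. The deposited values are raw counts, unnormalized and unfiltered, with AGPv4 coordinates, printed here as given. Strand and multi-mapping settings are not given in the sources used here. The leaf 1 table held here ends within chromosome 3 after position 193755817 and 10 of its lines could not be used. A gene was kept where its 6 annotation fields in leaf 1 equalled those of leaf 2, which left 18609 genes. The complete tables of protoplast 1, protoplast 2 and leaf 2 sum to 47061988, 42815615 and 41792981 counts.

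CPM used TMM factors over the shared genes. Protoplasts were compared with leaf by edgeR 4.0.16 (filterByExpr by group, robust quasi-likelihood fit, no replicate block) in R 4.3.3, which was tested on simulated data. DESeq2 1.42.0, limma 3.58.1 (voom), other scalings, filters, limits and left-out libraries were alternatives. With 2 libraries per group, p-values measure only the spread between these pools. Exon blocks are merged exons of all transcripts, and exon length is the deposited length. Fold bounds divide the mean leaf CPM by the mean CPM of 3 counts per protoplast library. The leaf mean enters as measured, without its counting error. Without molecular identifiers, reads may be copies of 1 molecule, so bounds cover counting error of the protoplast libraries only.

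Members and lists were chosen with earlier results of these data known. Genes named are the 10 of highest leaf CPM and per kb, those named in the sources, the 3 highest and 3 lowest leaf 1 to leaf 2 ratios, the largest groups within 100 kb, the 3 longest and 3 shortest, and the 3 strongest with 1 protoplast count. Other genes were named after their values were seen. Names come from the tables and phylogeny of the study, because 0 of the 255 identifiers matched the RefSeq gene table. Python 3.11.15 with pandas 2.3.3 and matplotlib 3.10.9 made the descriptions and figures.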

Additional observations from a re-analysis of the deposited data

How the results depend on the processing

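The number of genes with leaf counts and none in protoplasts follows its limits. It was 147 with a leaf minimum of 10 counts, 442 with at most 1 count in each protoplast library, 402 with at most 1 over both, and 819 with leaf 2 as the only leaf library over the whole annotation. Leaving out single libraries gave 312 to 469 genes, the highest without protoplast 1. Members called lower numbered 245 of 255 tested without a filter on low counts, where 2350 of all 12443 tested genes were. With the filter it was 136 of 136, beside 2110 of 9017. These counts follow how many members pass the filter, since the members were selected on this contrast. Their median leaf level was 1.82 CPM with a leaf minimum of 10 and 0.942 CPM without TMM, and 0.739 to 0.856 CPM from single leaf libraries. Their mean share of leaf counts was 0.294% with at most 1 protoplast count allowed in each library and 0.0741% without the 5 strongest genes, an alternative added after their counts were seen, against 0.137%. Members near another numbered 20 within 50 kb, 57 within 200 kb and 12 with a leaf minimum of 10. The median gene span was 1621 bases, where exon length was 1213. The leaf pair SD was 0.48 with a leaf minimum of 10. The median fold bound of the 10 strongest genes, 236, was 290.4 without TMM and 708 with a floor of 1 count.

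Without TMM, all genes called lower numbered 2595 and higher 1458, against 2110 and 1770, and the median log2 fold change of all genes moved to -0.31. With the replicate number as a block, 2029 genes were called lower and again 136 members. Deviations of same-numbered libraries were weakly negatively correlated (r = -0.208 across 9017 genes). With crossed pairs, added after this was seen, 2128 genes and 136 members were called. The block bears on these counts alone and changed no other call. Single-exon share and exon length stayed within their 95% intervals when the leaf minimum was 10, when 1 protoplast count was allowed, or with Zm00001d models only. Depth limits the 108 genes with 4 to 9 leaf counts most.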
